A study of Mus musculus with 14 samples.

Results

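The 7 arrays of cocultured mast cells, of 14 arrays in the series, fell into 2 expression states that crossed the genotype labels. The states were chosen from measured values, the levels of the fibroblast matrix genes Col1a1, Col3a1 and Dcn and of the mast cell chymase Mcpt1. State A holds 4 arrays, those labelled wild-type cocultured 1, 2 and 4 and knockout cocultured 3. State B holds 3 arrays, those labelled wild-type cocultured 3 and knockout cocultured 1 and 2. Because the arrays were sorted by their own expression, each difference between A and B below is a description, with no test, and none of the genes counts as independent evidence that the states exist.

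The series asks how loss of Pla2g3, which encodes group III secreted phospholipase A2, affects mast cells that mature on fibroblasts. Bone marrow of Pla2g3+/+ (wild-type) and Pla2g3-/- (knockout) mice, all of 1 strain, a mixed C57BL/6 line at N3 by its label, was grown in medium with interleukin 3 for 4 to 6 weeks, which gave bone marrow-derived mast cells (BMMCs) of over 97% purity by surface Kit and FcεRIα. The uncocultured BMMCs gave 3 wild-type and 4 knockout arrays. For the cocultured groups (4 wild-type and 3 knockout arrays) BMMCs were placed on a layer of Swiss 3T3 cells, a mouse fibroblast line, for 4 days (96 h) with stem cell factor at 100 ng/ml. They were then trypsinized and replated, and the cells that did not adhere, over 99% pure by the same surface markers, were lysed for RNA. The labels give neither the age of the mice, nor whether arrays of a group came from separate mice or cultures, nor which part of Pla2g3 was deleted.

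Mast cells leave the marrow immature and finish their development in tissue, where stem cell factor from fibroblasts signals through the receptor Kit. Mature cells store histamine, proteases such as chymases, tryptases and carboxypeptidase A3, and heparin in granules, and release them after the IgE receptor is crosslinked. Coculture with fibroblasts is a standard way to move BMMCs towards the connective tissue type. Fibroblasts make the collagens, decorin and other matrix proteins that mast cells make little of.

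Levels are log2 of the processed Cy3 signal of a one-colour Agilent array minus the 75th percentile of that array, so 0 is the 75th percentile. They set arrays against each other for the same probe and never one gene against another. Per-array values are given in the order wild-type 1, 2, 4 and knockout 3 for state A, then wild-type 3, knockout 1 and knockout 2 for state B. The 75th percentile of signal lay between 69.4 and 176 on the 14 arrays, and 42.8% to 55.9% of probes were well above background. This share was 51.3%, 54.9%, 52.3% and 55.9% in state A and 49.3%, 44.4% and 48.4% in state B, so it was higher in every array of A. The median of the 10 spike-in probes, relative to the 75th percentile, was 2.18 to 2.58 in A and 2.70 to 2.98 in B. What these differences contribute to the gene differences was not tested. The mast cell markers Kit, Fcer1a, Cpa3, Tpsb2 and Cma1 were well above background on all 14 arrays.

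The Pla2g3 probe (A_51_P402868, chr11:3393221-3393280, mm9) was not lower on the arrays labelled knockout. In BMMCs it read -3.75, -4.69 and -2.95 on the wild-type arrays and -1.43, -1.31, -1.60 and -1.96 on the knockout arrays. The knockout arrays were thus the higher ones, without overlap. On the cocultured arrays it read -4.33, -3.25, -4.14 and -2.22 in wild-type 1 to 4 and -3.21, -1.78 and -1.97 in knockout 1 to 3, which overlap. The mean of A exceeded that of B by 0.10, with overlap. Since the deleted part is not given, the probe may lie outside it and then checks no label.

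Across 15848 genes, 1817 (11.5%) were higher in A by at least 2-fold with no overlap between the 4 arrays of A and the 3 of B, 1762 (11.1%) were higher in B, and together these made 22.6% of genes. Without the fold requirement the arrays of 6176 genes (39.0%) did not overlap. Genes that were higher in A or in B by at least 2-fold without overlap are called separate below. The median difference was 1.69 (log2) among the genes higher in A, -1.39 among those higher in B and -0.02 over all genes. Arrays scaled to their median in place of the 75th percentile gave 828 genes higher in A and 4393 higher in B, with an all-gene median of -0.54, so that the share of the calls that were higher in A was 15.9% in place of 50.8%. Every difference below is relative to the 75th percentile, and no named gene that differed by at least 2-fold without overlap changed sign under median or quantile scaling. Normexp background correction with an added offset, which shrinks differences of dim probes, gave 540 genes higher in A and 287 in B, and the authors' normalized values gave 979 and 944. Among the genes higher in A, 628 of 1817 were below background on all arrays of B. Of the 1762 higher in B, 99 were below background on all arrays of A. Among the 11836 genes well above background on all 7 arrays, 813 were higher in A and 1532 in B.

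As whole profiles the states were not fully apart. Over all genes the correlation between arrays was 0.967 to 0.981 within B and 0.895 to 0.933 between A and B, and within A it ran from 0.921 to 0.976, so that wild-type 2 and knockout 3, both of A, were less alike than some pairs of an A and a B array. Arrays of B correlated at 0.885 to 0.923 with the BMMC arrays, and arrays of A at 0.820 to 0.885. These are correlations across genes, which are not independent replicates. For individual genes the BMMC mean did not sit mainly by B: it was nearer the mean of B than of A in 46.6% of the genes higher in A, in 49.9% of those higher in B and in 46.4% of all genes.

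The 14 arrays were on 4 slides, and 2 of the slides held both states. Slide 2 held wild-type cocultured 1 (A) with knockout cocultured 2 (B). Slide 4, scanned on another day, held knockout cocultured 3 (A) with wild-type cocultured 3 (B). Slide 1 held knockout cocultured 1 alone of these arrays, and slide 3 held wild-type cocultured 2 and 4. Genes at least 2-fold higher in A within a slide pair numbered 2343 on slide 2 and 2990 on slide 4, and those higher in B numbered 2554 and 2729. On both slides together 1623 genes were at least 2-fold higher in A and 1738 in B, and 119 went opposite ways past that fold. The A minus B difference correlated at 0.741 across genes between the slides, as a description of pairs that the sorting itself had formed. The genotype contrast is reversed between these pairs, since the array of A is labelled wild-type on slide 2 and knockout on slide 4.

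**Figure D1:**
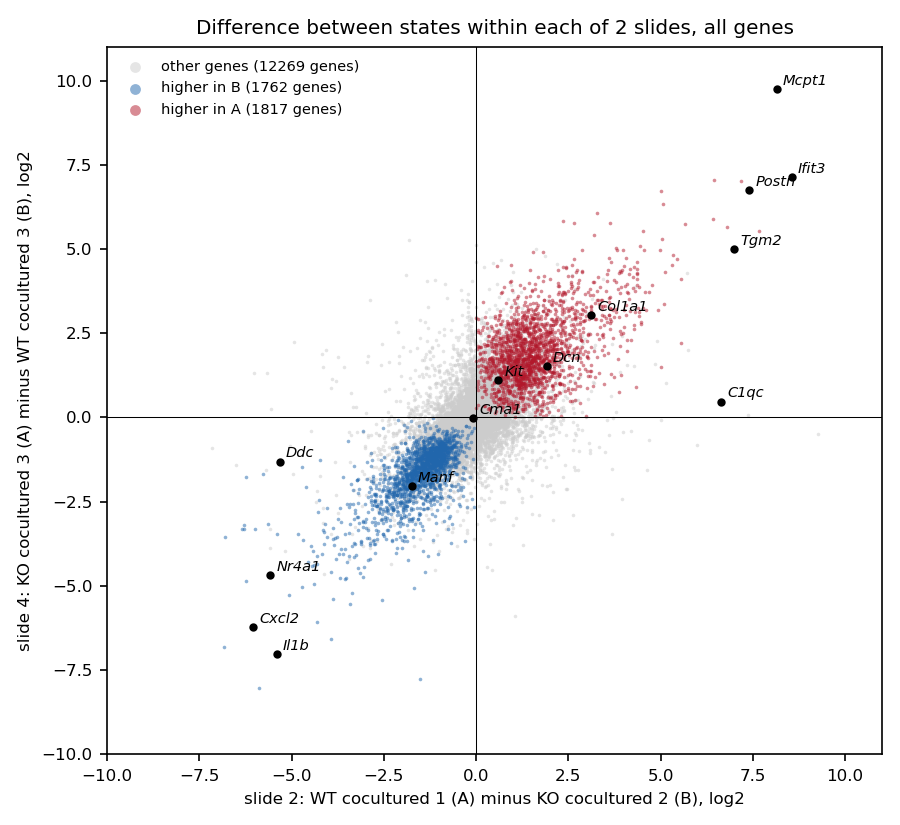
Difference between state A and state B (log2) within slide 2 (x axis, wild-type cocultured 1 minus knockout cocultured 2) and within slide 4 (y axis, knockout cocultured 3 minus wild-type cocultured 3), with 1 point for each of 15848 genes. The points lie along the diagonal, with 1623 genes at least 2-fold higher in A and 1738 at least 2-fold higher in B on both slides and 119 past that fold in opposite directions.

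Of the mast cell chymases and cathepsin G, 4 of 8 measured genes were higher in A and none in B, with a median difference of 1.56 beside -0.02 over all genes. Mcpt1, a chymase best known from mucosal mast cells and used in the sorting, had levels of 4.63, 3.78, 3.93 and 3.41 in A and -6.36, -4.76 and -3.52 in B. It was well above background on every array of A, on 1 of 3 of B and on none of the 7 BMMC arrays, whose mean was -6.23 ± 0.60 (SD, n = 7). Mcpt4, the main chymase of connective tissue mast cells, had levels of 8.12, 6.84, 7.24 and 6.27 in A and 1.54, 2.97 and 4.50 in B. The lowest array of A thus stood above the highest of B, and the means, 7.11 ± 0.78 (SD, n = 4) and 3.00 ± 1.48 (SD, n = 3), differed by 4.11 (17.3-fold). Cma2, another chymase, gave 6.98, 4.41, 4.73 and 4.34 against -0.07, 1.08 and 2.80. Mcpt2, also of the mucosal type, gave 2.34, 1.05, 1.89 and 1.26 against -2.75, -1.55 and -0.83. In all 4 genes wild-type 3 was the lowest array and wild-type 1 the highest.

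The other 4 genes of the list overlapped between states or differed by less than 2-fold. Cma1, the alpha chymase, had levels of 9.15, 8.66, 8.81 and 8.37 in A and 8.39, 9.32 and 9.23 in B, and 8.78 ± 0.33 (SD, n = 7) in BMMCs. Ctsg, which encodes cathepsin G, gave 8.04, 5.65, 7.45 and 6.83 against 7.41, 7.89 and 8.50. The chymase genes therefore did not differ as a block: within the same arrays the signal for Mcpt1, Mcpt2, Mcpt4 and Cma2 was separated by state and the signal for Cma1 and Ctsg was not.

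The 250 bases before the annotated start of Mcpt1 (GRCm38.p6, chr14:56017714-56017963, plus strand) and of Mcpt4 (chr14:56062311-56062560, minus strand) are printed because these 2 genes were separate while Cma1, of the same gene cluster, was not. Sequences are from RefSeq, and the capitals mark the longest run that both share, 53 bases.
Mcpt1: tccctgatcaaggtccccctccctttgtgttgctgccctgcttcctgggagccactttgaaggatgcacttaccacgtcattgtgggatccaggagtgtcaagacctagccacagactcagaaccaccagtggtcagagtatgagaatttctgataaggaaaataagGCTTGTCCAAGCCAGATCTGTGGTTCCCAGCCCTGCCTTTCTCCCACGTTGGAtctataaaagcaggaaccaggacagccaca
Mcpt4: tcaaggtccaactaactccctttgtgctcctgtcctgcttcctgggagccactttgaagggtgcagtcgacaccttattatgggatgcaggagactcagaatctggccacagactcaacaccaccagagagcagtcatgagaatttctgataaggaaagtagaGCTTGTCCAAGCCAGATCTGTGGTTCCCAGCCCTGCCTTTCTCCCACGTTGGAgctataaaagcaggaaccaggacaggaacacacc
The run starts 83 bases before the start of Mcpt1 and 87 before that of Mcpt4. The longest run that either stretch shares with Cma1, Ctsg, Mcpt8 or Mcpt9 was 7 to 10 bases. The upstream sequences used had no entry for Mcpt2 and Cma2, the other separate chymases. Whether these hold the run was not examined, so the run is not shown to mark the separate genes. The chymase genes are close relatives, and cross-hybridisation between their probes was not tested. With only the genes well above background on all 7 arrays, which leaves out Mcpt1, the list's median was -0.23.

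**Figure D2:**
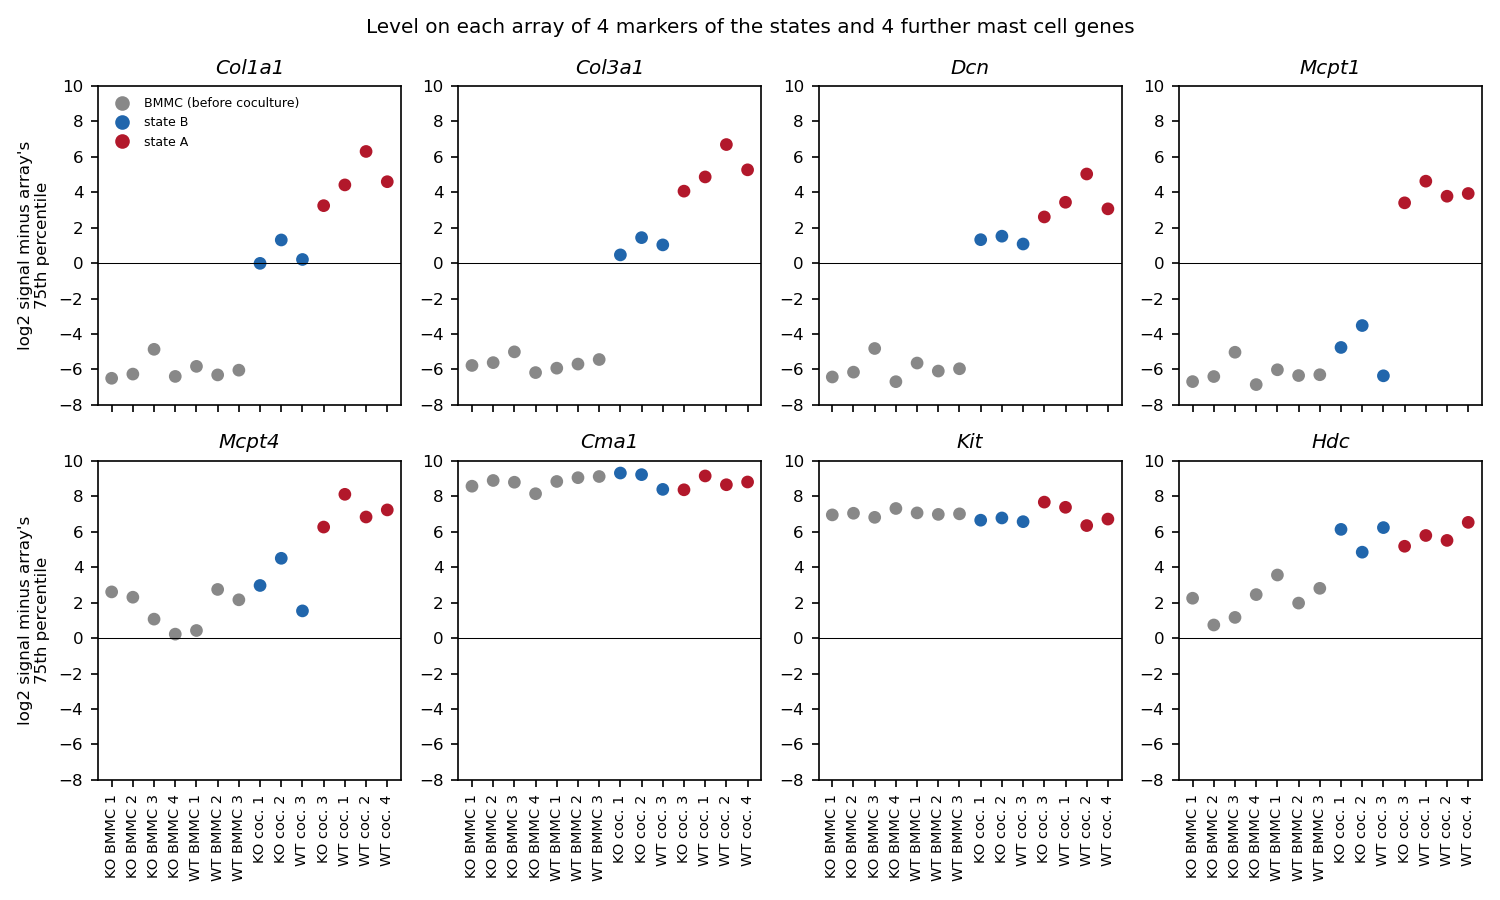
Levels (log2 signal minus the array's 75th percentile, y axis) of Col1a1, Col3a1, Dcn, Mcpt1, Mcpt4, Cma1, Kit and Hdc on the 14 arrays, 1 point per array, by BMMC group and by state. Mcpt4 lies at 6.27 to 8.12 in state A and 1.54 to 4.50 in state B, while Cma1, Kit and Hdc overlap between the states.

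Most other genes of mast cell identity were not separate between the states. Kit, the stem cell factor receptor, had levels of 7.38, 6.35, 6.72 and 7.68 in A and 6.57, 6.66 and 6.78 in B. Cpa3, which encodes carboxypeptidase A3, gave 8.45, 8.06, 8.13 and 7.81 against 7.87, 8.66 and 8.51. Hdc, the enzyme that makes histamine, gave 5.79, 5.51, 6.53 and 5.18 against 6.24, 6.14 and 4.85, and both states were above the BMMC mean of 2.14. In none of these genes were the states separate. Fcer1a, the IgE-binding chain of the receptor, was 7.84 ± 0.20 (SD, n = 4) in A and 8.84 ± 0.37 (SD, n = 3) in B. Every array of B was above every array of A, but the difference of -0.99 fell short of 2-fold. Of the 22 measured genes of IgE receptor and Kit signalling, 1 was higher in B and none in A. Of 6 tryptase and granule cargo genes, only Prss34, a basophil and mast cell tryptase also called Mcpt11, was separate, at 2.52 higher in A. Tpsb2, the tryptase Mcpt6, was 6.65 in A and 7.30 in B. Its arrays did not overlap either, and it too fell short of 2-fold.

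Surface receptors of connective tissue mast cells were among the separate genes. The receptor list as a whole was balanced, with 4 of 21 higher in A and 4 in B (19.0% each) and a median of -0.13. Over all genes the shares were 11.5% and 11.1%. Mrgprb2, the receptor through which basic secretagogues activate mouse mast cells, had levels of 4.20, 4.84, 5.52 and 4.61 in A and 0.23, 2.23 and 0.62 in B. Mrgprb1, a relative in the same receptor family, gave 0.81, 0.74, 0.82 and 1.98 against -2.99, -1.79 and -4.18. No BMMC array had Mrgprb1 well above background, and no array of B reached the lowest of A. Itga4, an integrin chain that binds Vcam1 and fibronectin, gave 1.59, 0.36, 2.09 and 1.96 against -4.36, -4.54 and -3.48. Higher in B were Cd200r1, an inhibitory receptor (A minus B -1.89), the integrin chain Itgb7 (-1.61), the lipopolysaccharide receptor Tlr4 (-1.33) and the interleukin 2 receptor chain Il2ra (-1.02).

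Among 22 heparin and chondroitin sulfate genes 6 were higher in A (27.3%) and none in B, beside 11.5% and 11.1% of all genes. The median of 0.20 became -0.33 under median scaling. The 6 were Ndst2, the N-deacetylase and N-sulfotransferase that mast cell heparin requires (5.11 ± 0.25 in A and 3.50 ± 0.74 in B, SD, n = 4 and 3), Extl3, B3gat3, Chpf, Ext1 and Xylt2. The probes of B3gat3 disagreed, with A minus B of 1.96 for the probe used and -0.48 and -0.41 for the others. Of 19 mast cell transcription factors 5 were higher in A (26.3%) and 3 in B (15.8%), with a median of 0.44 (-0.09 under median scaling). Those higher in A were the Notch target Hes1, the GATA partner Zfpm1 (2.41), Stat5a (1.88), Spi1 (1.12) and Tcf4 (1.03). Hes1 was below background on all arrays of B, so its difference is given as at least 3.89-fold. With normexp correction Chpf, Hes1 and Spi1, all dim, turned to -0.17, -0.08 and -0.19. Gata1, Gata2 and Mitf, which encode the main regulators of the lineage, differed by -0.34, 0.34 and -0.28 and were not separate by that measure.

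In both lists of lipid mediator genes the share higher in B was above the 11.1% of all genes, though the lists are short. Of 13 prostanoid genes 3 were higher in B and 1 in A, with a median of -0.53, and of 8 leukotriene genes 2 were higher in B and none in A, with a median of -0.87. With normexp correction no gene of either list was separate, and on the authors' values 1 of each was higher in B. Tbxas1, thromboxane synthase, was 3.29 in A and 4.81 in B, and Ltc4s, which makes leukotriene C4, was -0.07 and 1.43. Ptges, the inducible prostaglandin E synthase, went the other way, with 0.23 in A and -1.79 in B. No BMMC array had Ptges well above background. Hpgds, the prostaglandin D synthase of mast cells, differed by -0.30 and overlapped. Ptgs2, also of the prostanoid list, differed by -2.07 by the probe used, with overlap. Its other probe differed by -2.25 without overlap. Of 8 histamine and serotonin genes 2 were higher in B, namely Ddc and the histamine receptor Hrh1 (-2.40). Ddc, which makes serotonin from its precursor, had levels of 1.17, 2.33, 3.75 and 3.71 in A and 5.02, 6.32 and 6.50 in B.

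Most measured genes of the fibroblast lists were higher in A. Of 14 collagen genes 12 were higher in A and 1 in B, with a median difference of 3.32, and of 33 other fibroblast matrix and stromal genes 21 were higher in A and 1 in B, with a median of 1.95. With normexp correction 5 and 10 were higher in A. Col1a1, a chain of collagen I used in the sorting, had levels of 4.42, 6.31, 4.60 and 3.25 in A and 0.21, -0.01 and 1.31 in B. Col3a1, collagen III, gave 4.87, 6.70, 5.27 and 4.07 against 1.03, 0.47 and 1.44. Dcn, the proteoglycan decorin, gave 3.44, 5.03, 3.07 and 2.61 against 1.08, 1.33 and 1.52. These genes were well above background on all arrays of both states and on none of the 7 BMMC arrays, so the fibroblast signal was present in B too, at lower levels. In a bulk sample, fewer cells of a type and less RNA per cell cannot be told apart.

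Away from the sorting genes, Postn, which encodes the matrix protein periostin, had levels of 1.28, 2.55, 0.75 and 0.39 in A and -6.36, -5.65 and -6.13 in B. It was below background on all arrays of B and of BMMCs, and the difference is at least 35.6-fold. Ogn, the proteoglycan osteoglycin, was at least 36.5-fold higher in A by the same measure, and Mmp2, a gelatinase, at least 10.4-fold. The receptor Pdgfrb was 2.67 ± 1.15 (SD, n = 4) in A and -2.74 ± 1.13 (SD, n = 3) in B. The growth factor Ptn, pleiotrophin, was 4.29 and -2.72. Their arrays did not overlap. Dlk1, a Notch-related protein of preadipocytes, was 1.61 ± 1.26 (SD, n = 4) in A and -5.12 ± 0.99 (SD, n = 3) in B. Cxcl12, a chemokine that stromal cells secrete, gave 1.65, 3.60, 1.73 and 0.39 in A and -3.86, -3.83 and -2.71 in B.

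In each of these lists 1 gene was higher in B, in the collagens Col18a1. This gene, the source of endostatin, had levels of -2.58, -0.69, -1.55 and -2.15 in A and 3.93, 2.20 and 1.73 in B. It was well above background on all BMMC arrays, unlike Col1a1, Col3a1 and Dcn. The contractile genes Acta2 and Tagln differed by -0.94 and 0.73 and were not called, and neither was S100a4 (-0.26).

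**Figure D3:**
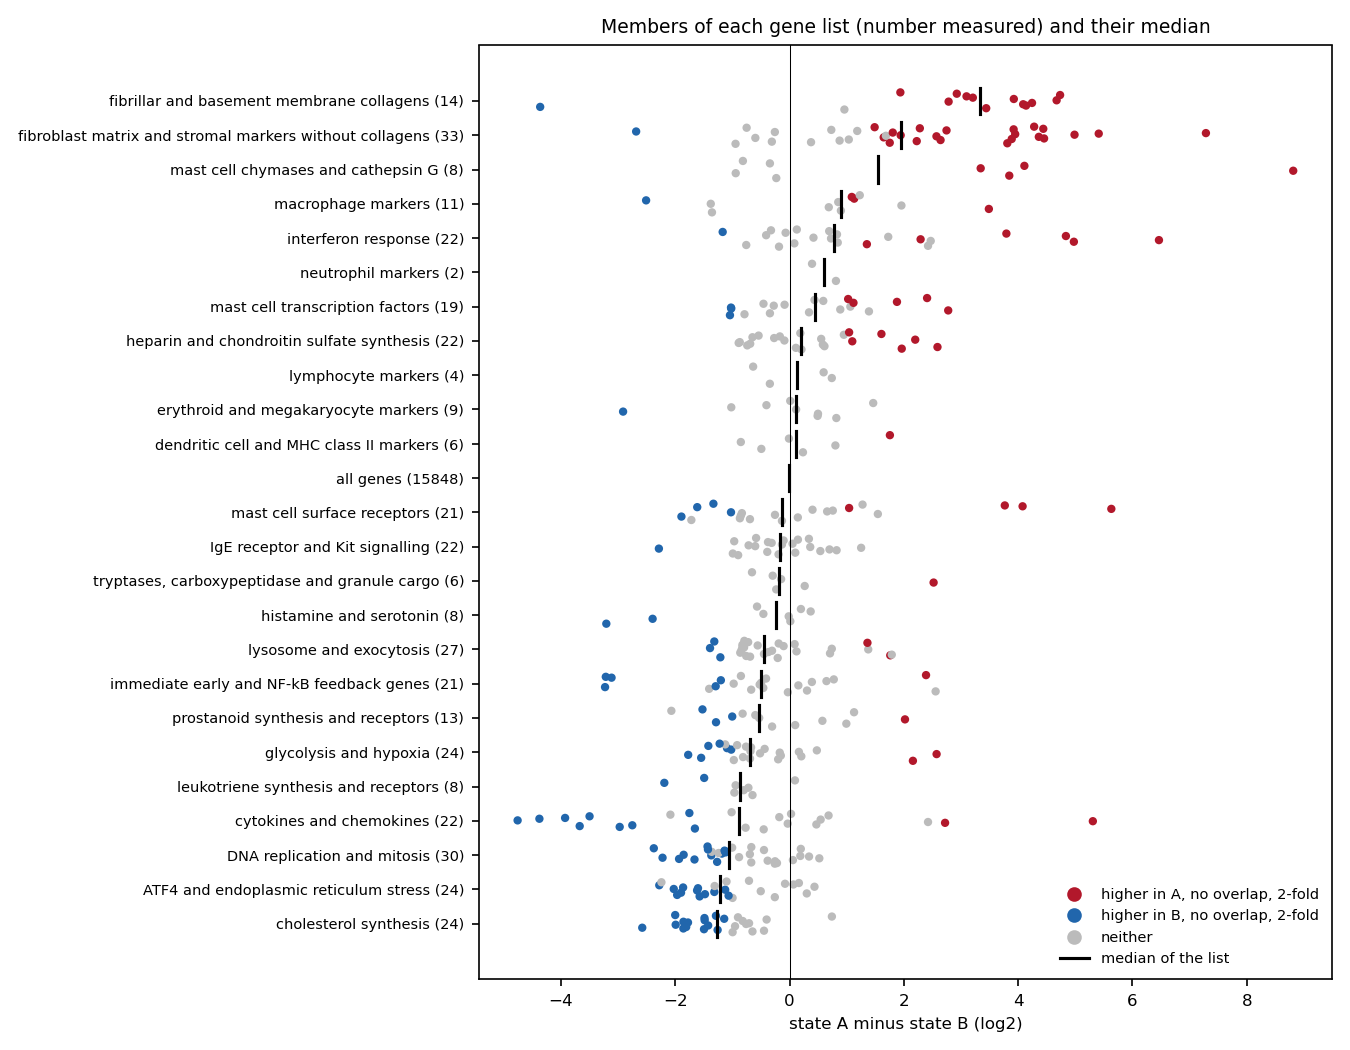
Difference between the mean of state A and the mean of state B (log2, x axis) for the measured genes of each list (rows), 1 point per gene, with the list's median marked. The collagens (median 3.32) and the other fibroblast genes (1.95) lie furthest towards state A, and cholesterol synthesis (-1.27), the endoplasmic reticulum list (-1.22) and DNA replication (-1.06) towards state B.

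Of the markers of other blood cells 6 were separate, beside 22.6% of all genes. Of 11 macrophage markers 3 were higher in A (C1qc, Lyz2 and Marco) and 1 in B (Fcgr1). C1qc, a complement component of macrophages, was -1.32 ± 1.29 (SD, n = 4) in A and -4.81 ± 1.71 (SD, n = 3) in B, and it was well above background on 1 of 3 arrays of B, wild-type 3, at -2.86. None of 2 neutrophil and 4 lymphocyte markers was separate. The transcription factor Zbtb46 was the separate gene among 6 dendritic cell markers, and Hba-a1, alpha globin, higher in B, among 9 erythroid and megakaryocyte markers. With normexp correction Marco and Zbtb46 turned to -0.41 and -0.33.

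Cytokines and chemokines were split between the states, with 2 of 22 higher in A and 9 in B and a median of -0.89. The 9 were Il1a, Il1b, Il6, Tnf, Ccl3, Ccl4, Ccl7, Ccl17 and Cxcl2, and the 2 were Cxcl1 and Cxcl12. Il6, which encodes interleukin 6, had levels of 4.21, 4.32, 3.74 and 3.53 in A and 7.34, 7.43 and 7.58 in B. Ccl4, a chemokine that activated mast cells release, gave 3.11, 4.98, 5.07 and 2.71 against 7.73, 7.36 and 7.82. Tnf, a preformed and induced mast cell cytokine, gave 2.79, 3.10, 3.62 and 3.23 against 4.68, 4.48 and 5.64. Every array of B was above every array of A in these genes. Cxcl2, a neutrophil attractant, gave -6.03, -1.78, -3.91 and -4.22 in A and 2.02, 0.28 and 0.02 in B. No BMMC array had Cxcl2 well above background. Il1a was below background on all of A, so its difference is at least 10.9-fold. Cxcl1, the close relative and neighbour of Cxcl2, had the opposite order, with 3.61, 6.24, 4.59 and 2.57 in A and 1.15, 1.23 and 2.20 in B. The Th2 cytokines Il4 and Il13 differed by -0.18 and 0.54 and were not separate.

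Upstream stretches of 3 of these genes are shown because they hold an NF-kB-type motif (GGG, any 2 bases, then TTTCC) and the genes moved in different directions: Cxcl2 (GRCm38.p6, chr5:90903649-90903898, plus strand) and Il6 (chr5:30012864-30013113, plus strand), higher in B, and Cxcl1 (chr5:90890995-90891244, plus strand), higher in A. Capitals mark matches on either strand.
Cxcl2: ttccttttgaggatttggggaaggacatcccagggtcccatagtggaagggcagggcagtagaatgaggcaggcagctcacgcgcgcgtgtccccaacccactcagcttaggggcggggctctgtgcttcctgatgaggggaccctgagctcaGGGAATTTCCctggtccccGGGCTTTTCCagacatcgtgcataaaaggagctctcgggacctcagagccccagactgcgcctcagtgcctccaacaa
Il6: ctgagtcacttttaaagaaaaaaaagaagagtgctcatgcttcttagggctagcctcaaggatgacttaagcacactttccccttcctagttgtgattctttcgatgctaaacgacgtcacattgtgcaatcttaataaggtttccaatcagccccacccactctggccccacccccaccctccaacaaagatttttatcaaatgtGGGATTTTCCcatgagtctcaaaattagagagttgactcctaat
Cxcl1: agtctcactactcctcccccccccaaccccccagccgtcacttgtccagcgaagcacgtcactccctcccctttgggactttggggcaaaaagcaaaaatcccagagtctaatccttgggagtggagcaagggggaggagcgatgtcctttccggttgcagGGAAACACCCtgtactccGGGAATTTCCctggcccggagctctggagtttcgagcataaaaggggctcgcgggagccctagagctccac
The matches start 97 and 78 bases before the start of Cxcl2, 44 before that of Il6, and 89 and 71 before that of Cxcl1. The motif was present in 464 of 32851 upstream stretches of this length (1.41%), and in 4 of the 18 cytokine genes with an entry: 2 of 7 higher in B, Cxcl1 of the 2 higher in A, and Csf1 of the 9 others. A match describes letters and not a bound site, and genes higher in A and genes higher in B both held it.

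Some interferon response genes were higher in A, 6 of 22 (Ifit1, Ifit3, Irf7, Mx2, Oasl2 and Gbp2), while 1 was higher in B and 15 were neither. The median was 0.78, beside shares over all genes of 11.5% higher in A and 11.1% in B. Normexp correction left 1 of the list higher in A and 0 in B. The authors' values gave 2 and 0, with a median of 0.15. On all arrays of B, 8 of the 22 were below background. Ifit3, an interferon-induced RNA-binding protein, had levels of 2.46, 0.21, -1.53 and 0.85 in A and -6.27, -5.54 and -6.09 in B. Ifit1, which binds viral RNA caps, gave 2.75, -1.58, -3.23 and 2.14 against -4.89, -5.56 and -4.43. Mx2, a GTPase of the same response, gave 0.62, -1.62, -2.80 and -0.53 against -6.17, -5.40 and -6.19. All 3 genes were below background on each array of B, and the differences are at least 21.2-, 15.2- and 7.10-fold. Iigp1, an interferon-induced GTPase outside the list, was at least 46.8-fold higher in A. Other members did not follow: Isg15 differed by 0.42, Rsad2 by -0.07 and Usp18 by -0.32.

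The interferon genes also differed within A, and not in 1 order. Ifit1, Ifit3 and Mx2 were highest on wild-type 1, next on knockout 3 and lowest on wild-type 4. Over the list wild-type 2 was the highest array of A in 12 of 22 genes, and knockout 3 was the highest in 0 and the lowest in 10. The stretches before Ifit3 (GRCm38.p6, chr19:34583279-34583528, plus strand) and Ifit1 (chr19:34640639-34640888, plus strand) are printed because they had the widest differences between the states in the list, with matches on either strand to the core of the interferon-stimulated response element (GAAA, any 2 bases, then GAAA) in capitals.
Ifit3: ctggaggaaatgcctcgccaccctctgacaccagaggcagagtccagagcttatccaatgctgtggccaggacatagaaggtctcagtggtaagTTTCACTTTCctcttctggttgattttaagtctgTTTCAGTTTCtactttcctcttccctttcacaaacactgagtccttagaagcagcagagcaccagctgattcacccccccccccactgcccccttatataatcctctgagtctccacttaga
Ifit1: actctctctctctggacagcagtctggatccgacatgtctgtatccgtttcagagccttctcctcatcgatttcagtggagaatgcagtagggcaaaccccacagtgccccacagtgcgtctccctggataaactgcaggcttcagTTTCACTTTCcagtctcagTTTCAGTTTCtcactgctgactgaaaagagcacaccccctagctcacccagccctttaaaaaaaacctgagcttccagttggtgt
Both hold 2 matches, which start 156 and 122 bases before the start of Ifit3 and 104 and 85 before that of Ifit1. The motif was in 978 of 32851 stretches (2.98%) and in 10 of the 17 list genes with an entry (58.8%), namely 3 of 5 higher in A and 7 of 12 that were not separate.

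Some genes of cholesterol synthesis, protein folding and DNA replication were higher in B, and these counts depended on the background correction. Of 24 cholesterol genes 14 were higher in B and none in A, with a median of -1.27. Insig1, which retains the sterol sensor in the endoplasmic reticulum, had levels of 0.85, -0.28, -0.54 and 1.32 in A and 2.92, 2.17 and 1.89 in B. Its means were 0.34 ± 0.89 (SD, n = 4) and 2.33 ± 0.54 (SD, n = 3), a difference of -1.99 (3.98-fold), beside 0.20 in BMMCs, and no array of A reached the lowest of B. Fdps, farnesyl diphosphate synthase, was 2.73 and 4.59, but another Fdps probe differed by 1.60 in the opposite direction. The mean level of the whole list was 1.82 to 2.59 in A, 3.21 to 3.51 in B and 1.88 to 2.69 in BMMCs. Srebf2, which encodes the regulator of these genes, differed by 0.74 and was not called. With normexp correction 3 of the list were higher in B and 1 in A.

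Of 24 genes of the ATF4 and endoplasmic reticulum list 12 were higher in B (5 with normexp correction) and none in A, with a median of -1.22. Of the 12, 11 serve the endoplasmic reticulum: the chaperones and folding factors Hspa5, Hsp90b1, Calr, Canx, Pdia4, Pdia6, Dnajb9, Sdf2l1, Creld2 and Manf, and the degradation factor Edem1. Manf had levels of 3.23, 2.95, 2.77 and 2.69 in A and 4.73, 5.10 and 4.98 in B. The remaining gene was Chac1, an ATF4 target that degrades glutathione (A minus B -1.97). Atf4 and Ddit3, the transcription factors of the response, differed by -0.26 and 0.30. Slc7a11, the cystine transporter, gave 0.80, -2.59, -4.60 and 1.24 in A and 1.86, 1.21 and -0.21 in B, so that 2 arrays of A lay within the range of B.

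Of 30 genes of DNA replication and mitosis 13 were higher in B and none in A, with a median of -1.06. With normexp correction 2 were higher in B and 1 in A. Rrm2, the ribonucleotide reductase subunit of S phase, had levels of -0.15, 0.03, -0.51 and -0.61 in A and 2.16, 1.66 and 2.37 in B. With it went Cdc6 and Gins2 (A minus B -2.22 and -1.85), which load and start replication forks, the helicase genes Mcm2, Mcm4, Mcm6 and Mcm7, Pcna, Tyms, the cyclins Ccne1 and Ccne2, and E2f1. Of the mitotic genes only Bub1 (-1.27) was separate by at least 2-fold. Mki67, Plk1, Ccnb1 and Cdc20 differed by -0.45, 0.20, -0.38 and 0.52.

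Of 24 glycolysis and hypoxia genes 6 were higher in B and 2 in A, with a median of -0.69, and the directions within the list differed. Eno1, the common enolase, was -1.42 in A and 0.36 in B, and Eno2, its neuronal form, -0.58 and -3.15. Of 27 lysosome and exocytosis genes 2 were higher in A (7.41%) and 3 in B (11.1%), with a median of -0.45. Neither share was above that over all genes. Ctsl, the protease cathepsin L, was 1.76 higher in A. Vamp7, a vesicle fusion protein, and Rab3d, a granule GTPase, were lower in A by the differences -1.32 and -1.39. Vamp2 was 1.36 higher in A by the probe used, and its other probes differed by -0.14 and -0.03.

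The immediate early genes varied within A. Of 21 genes 5 were higher in B (23.8%) and Zfp36 (2.39) was higher in A, with a median of -0.50. Over all genes 11.1% were higher in B and 11.5% in A. Nr4a1, an orphan receptor induced within minutes of a signal, had levels of 1.69, 5.07, 4.84 and 1.31 in A and 6.00, 5.75 and 7.26 in B. Fosb, a partner of Jun, gave -3.33, 0.17, 0.08 and -3.53 against 1.73, 1.24 and 1.75. Il1b gave -1.62, 3.04, 3.53 and -1.44 in A and 5.58, 5.04 and 3.78 in B. In each of these genes wild-type 2 and 4 lay between wild-type 1 and knockout 3 on the one side and state B on the other.

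Wild-type 2 and 4 are the arrays of A on slide 3, so this division within A goes with the slide, and what the slide contributes was not tested. Of all genes, 1173 (7.40%) were at least 2-fold higher without overlap on wild-type 1 and knockout 3 than on the slide 3 arrays, and 2496 (15.7%) were higher on the slide 3 arrays. Of the immediate early list, 12 of 21 were higher on slide 3 and 2 lower. Of the cytokine list, 14 of 22 were higher and 1 lower. Of the interferon list 4 of 22 were higher on slide 3 and 7 lower, and of the ATF4 and endoplasmic reticulum list none was higher and 8 of 24 lower. Trib3, an ATF4 target, gave 3.67, 1.93, 1.29 and 4.02 in A and 4.14, 4.03 and 3.33 in B. The chymases had no gene on either side of this division.

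The collagens were graded within A. Wild-type 2 was the highest array of A in 13 of 14 collagens and in 27 of the 33 other fibroblast genes, and knockout 3 was the lowest in 8 and 24. Over all genes wild-type 2 was the highest array of A in 18.9% and knockout 3 the lowest in 36.5%. The mean collagen level was -0.18 to 2.02 in A, -2.61 to -1.88 in B and -5.58 to -4.25 in BMMCs. The chymase order was another one, with wild-type 1 the highest array of A in 7 of 8 genes. The mean chymase level was 3.28 to 4.56 in A, 0.68 to 2.31 in B and -0.97 to 0.27 in BMMCs. The array with the most fibroblast signal was thus not the array with the most chymase signal.

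**Figure D4:**
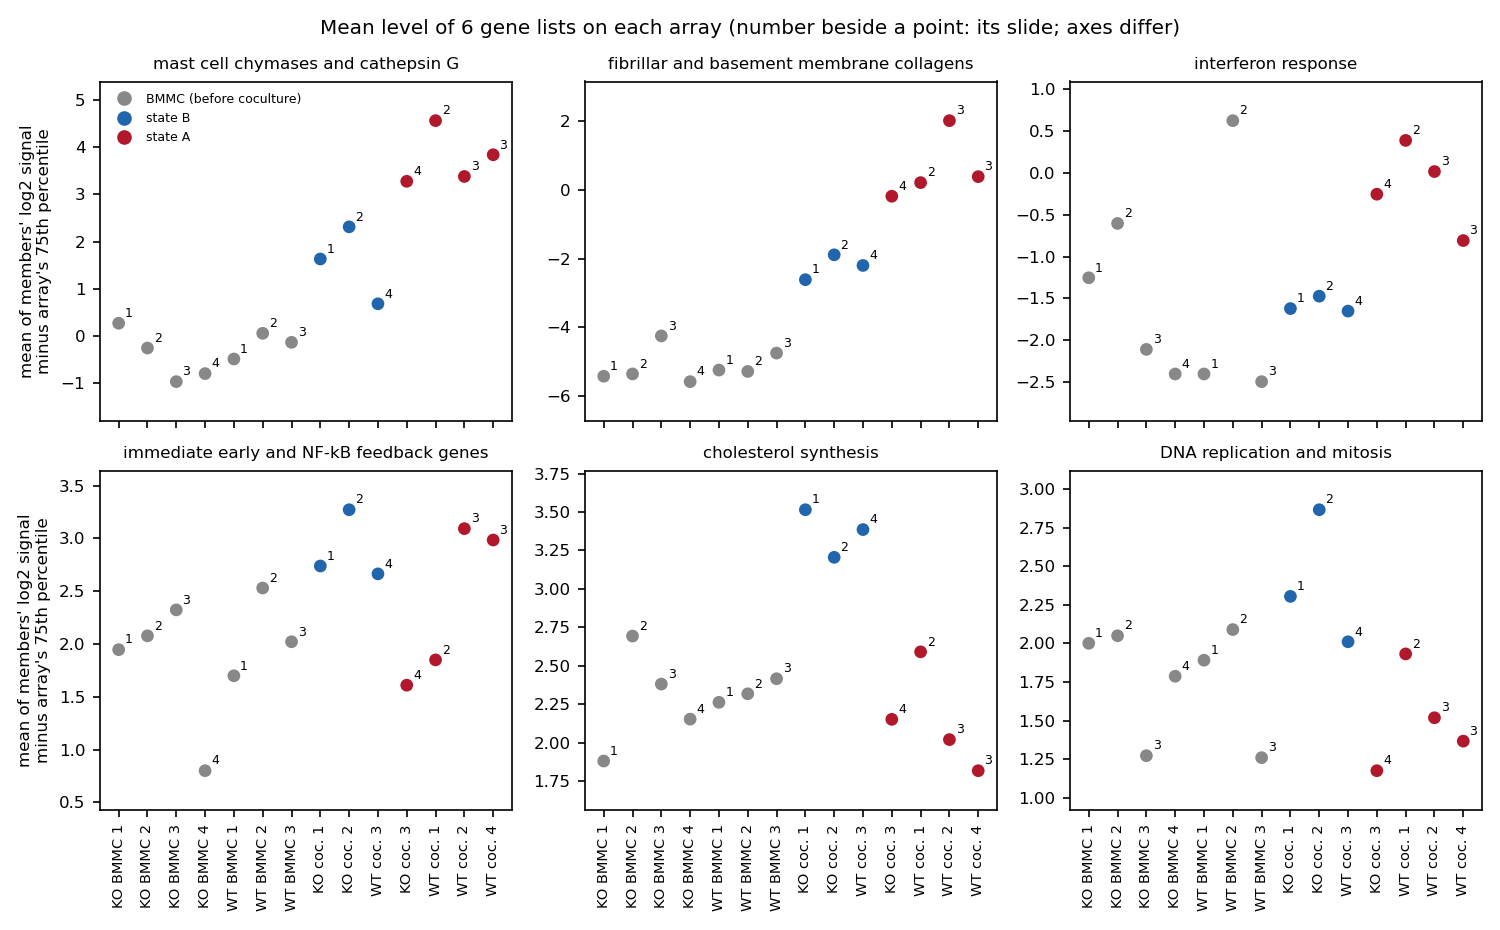
Mean level (log2 signal minus the array's 75th percentile, y axis) of 6 gene lists on each of the 14 arrays, 1 point per array marked with its slide number, by group and state. Collagens lie at -0.18 to 2.02 in A and -2.61 to -1.88 in B, cholesterol genes at 1.82 to 2.59 and 3.21 to 3.51, and in the immediate early list the slide 3 arrays of A stand apart from the other arrays of A.

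The genes with the widest difference towards B came from several classes. Grp, which encodes gastrin-releasing peptide, was below background on all of A, with levels of -6.46, -6.30, -5.96 and -6.66, and read 1.36, 0.72 and -0.59 in B, a difference of at least 25.9-fold. Jaml, a leukocyte adhesion molecule, was -4.75 ± 1.33 (SD, n = 4) in A and -0.07 ± 1.11 (SD, n = 3) in B. BMMCs had means of 2.16 for Grp and 4.17 for Jaml, above both states. Clec4e, the receptor Mincle, was 4.61 higher in B, and Egr4, an immediate early factor, 4.35 higher. Both had BMMC means below those of the 2 states. On the side of A, Tgm2, a transglutaminase that crosslinks proteins, had levels of 5.35, 6.25, 6.22 and 5.08, against 0.09, 0.32 and -1.65 in B and a BMMC mean of 2.28. For Tgm2 the BMMC mean lay between the states.

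Read by its labels, the comparison of knockout with wild-type among cocultured cells crossed the states. With limma over all 14 arrays, 0 of 15848 genes (0%) passed an adjusted p of 0.05, 604 had an unadjusted p under 0.05, and the lowest adjusted p was 0.791. On the authors' normalized values 1 gene passed. Without the arrays of slide 4 (wild-type 3 and knockout 3) the contrast becomes that of A with B, so a fit of it tests nothing about genotype. Knockout minus wild-type of Col1a1 was -3.11 on slide 2 and 3.04 on slide 4. That of Mcpt1 was -8.15 on slide 2, and on slide 4, where wild-type 3 was not well above background, knockout 3 was at least 176-fold higher. Since state and label coincide on slides 1 to 3, they cannot be told apart there. In uncocultured BMMCs 0 genes passed (0%), with 167 at an unadjusted p under 0.05 and a lowest adjusted p of 0.0752.

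Genes chosen for a difference between the genotypes in BMMCs gave a look at the labels of the cocultured arrays through genes chosen without them. The planned choice, at an adjusted p under 0.05 in the BMMC arrays, found 0 genes. A choice added after seeing this, at an unadjusted p under 0.01 with at least 2-fold and no overlap, found 45 genes. At an unadjusted p under 0.01 alone there were 72 genes, fewer than the 158 that this p would give by chance. By this count the 45 as a set are not shown to differ by genotype. This fit left out any pairing of BMMCs by replicate number, and what that contributes to the low count was not tested. The count also takes no account of position. The 3 of the 45 with the lowest p lay close together, within chr4:153690234-155239859 (mm9), and what this contributes was not tested. Of the 45, 34 kept their BMMC direction between knockout and wild-type cocultured arrays as labelled, and 23 kept it between the states, when B was read as knockout, beside 51.1% and 45.9% of all genes. Among the 45 were 4 within 10 Mb of Pla2g3 on chromosome 11, with Pla2g3 itself and Ddc counted among these 4. Ddc was also separate between the states. All 4 kept their BMMC direction by label and 3 by state, and of the 41 genes elsewhere 30 and 20 kept it. The score of an array was its mean log2 deviation over the 45 genes towards the wild-type side of the BMMCs. It was 0.17, 0.55, 0.32 and 0.11 on wild-type 1 to 4 and -0.32, -0.55 and -0.29 on knockout 1 to 3. By this score wild-type 3 was on the side of the other wild-type arrays and knockout 3 on that of the other knockout arrays. Over the 4 genes at or near Pla2g3 alone the labels did not separate: wild-type 4 scored -0.33, as did knockout 3, while wild-type 3 scored 0.33.

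**Figure D5:**
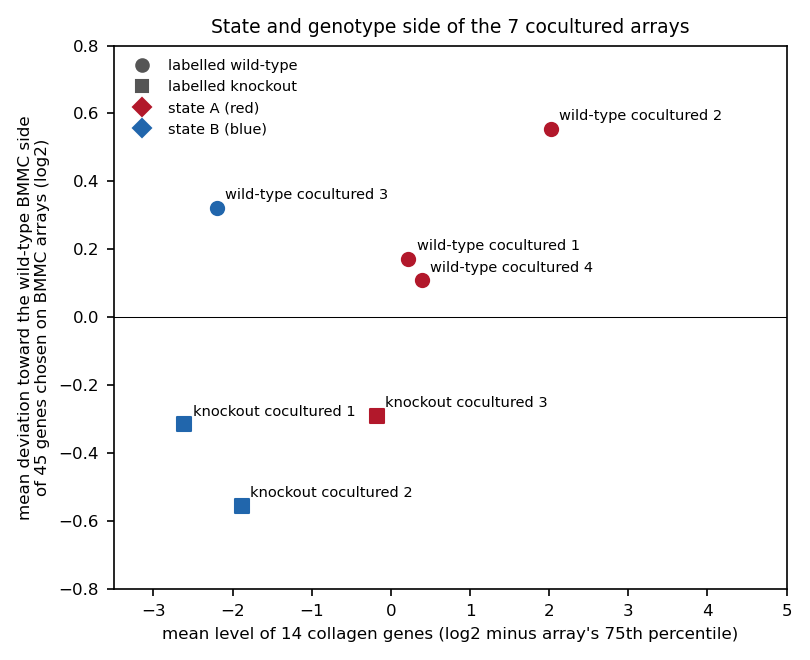
Mean collagen level (log2 signal minus the array's 75th percentile) against the score of the 45 genes chosen on BMMC arrays, 1 point for each of the 7 cocultured arrays, named by genotype label, replicate and state. The 4 wild-type arrays score 0.11 to 0.55 and the 3 knockout arrays -0.55 to -0.29, whichever state they are in.

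The sex-linked genes divided the 7 arrays in another way. Eif2s3y, on the Y chromosome, had levels of 2.96, 2.56, 2.77 and 2.82 in A and 3.30, -5.57 and -6.30 in B, and Xist, from the inactive X chromosome, gave 1.60, 3.41, 1.48 and 1.15 in A and -0.84, 5.38 and 5.66 in B. Knockout 1 and 2 thus had no Y-linked signal above background, and wild-type 3, which is in the same state, had the highest Eif2s3y signal of the 7. In BMMCs, which had no fibroblasts, the arrays with Eif2s3y signal lacked Xist: Eif2s3y read 2.98 and 3.06 on wild-type BMMC 2 and knockout BMMC 2, where Xist read -6.43 and -5.26, and Xist read 5.60 to 5.95 on the other 5 BMMC arrays. Of these 5, knockout BMMC 3 also had a Y-linked reading, Kdm5d at 4.06, with Eif2s3y at -4.19 and below background. All arrays of A and wild-type 3 had both transcripts well above background, with Xist highest in wild-type 2, the array of A with the most collagen signal. What RNA of the fibroblast layer contributes to Xist was not tested.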

How the data were processed

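The authors' deposited files hold, per the file headers, processed Cy3 intensity from 1-colour Agilent arrays, read with Agilent Feature Extraction 9.5.1.1, per the submitters' processing notes. Control spots and outlier flags (74 to 326 spots an array) were left out, log2 intensity was taken minus each array's 75th percentile, and probes well above background on at least 3 of 14 arrays were kept (23245 of 41174). Of these, 371 with a missing value were dropped, Ms4a2 among them. The brightest probe stood for each of 15848 genes. Some genes are not reported here by name. Probes were named by accession (24844), by symbol or synonym (7855) or as in the file (8475). The authors' deposited table of 25193 probes holds normalized values whose scale and centring are not given in the sources used here. Values under 1 were set to 1 before log2 was taken. Since 59.2% of the values were at or below 0, most readings became 0. If the deposited values were already log2, the log was taken a second time. This table served as an alternative, as did normexp correction with an offset of 50 and median and quantile scaling. Further alternatives were the filter, slide pairs, blocks and leaving out each array.

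The members and gene lists were chosen with earlier results of these data known. Named by rule are the sorting genes, Pla2g3, the 15 widest differences each way, up to 4 separate genes of a list, the widest genotype-linked genes and fixed mast cell and sex-linked genes. Others, among them Il6, Ccl4, Tnf, Cxcl1, Ctsg, Slc7a11 and Trib3, were chosen after their values were seen. Where the lower state was below background on every array, its level was set at the higher of the lowest signal among probes well above background and its own, and the fold is a lower bound. The labelled genotypes were compared by limma (version 3.58.1, under R 4.3.3) with Benjamini-Hochberg adjustment, in a fit tested on simulated data. P-values measure only the spread between arrays, which may be technical, and precision is limited by how few arrays each group has.

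Deviations of the cocultured arrays from their group means correlated at -0.434, -0.149 and -0.547 between arrays of the same number. Each such pair joins an array of A with an array of B. These values therefore cannot show whether replicate numbers pair the cocultured arrays. In BMMCs these correlations were 0.197, 0.499 and 0.487. The fits reported above nevertheless left this pairing out, and the replicate block was run only as an alternative. BMMC 1, 2 and 3 of both genotypes lay on slides 1, 2 and 3, so number and slide cannot be told apart in BMMCs.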

Additional observations from a re-analysis of the deposited data

Results flagged for a closer look

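Among values of 4 arrays, 1 array stood far from the others where its gap to the nearest, as a share of the whole range, passed Dixon's 95% critical value, which chance passes in about 1 of 20 groups. In state A this held for 6 of 134 values. Knockout 3 stood apart for the glycolysis and hypoxia list (share of range 0.909, level 2.30), for Tbxas1 (0.874, level 2.85) and for Mrgprb1 (0.931, level 1.98). Wild-type 1 stood apart for Cma2 (0.851, level 6.98) and Bnip3 (0.888, level 0.97). Wild-type 4 stood apart for Cd200r1 (0.890, level 1.12).

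Among the wild-type cocultured arrays as labelled it held for 3 of 29 values. Mcpt1 stood apart in wild-type 3 (0.923, level -6.36), as did glycolysis and hypoxia (0.946, level 2.85), and lymphocyte markers in wild-type 1 (0.867, level -3.98). Mcpt1 was among the genes that sorted wild-type 3 into state B, so its flag follows from the sorting and is not independent.

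Among knockout BMMC arrays it held for 6 of 29 values. Knockout BMMC 3 was the array apart for Col1a1 (0.855, level -4.86), the collagens (0.832, level -4.25), histamine and serotonin genes (0.839), prostanoid genes (0.922) and cytokines and chemokines (0.910), and knockout BMMC 2 for leukotriene genes (0.873).

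Knockout minus wild-type among cocultured arrays had opposite signs on slide 2 and slide 4 for the genes used in the sorting, a difference that was not tested. Col1a1 gave -3.11 and 3.04, Col3a1 -3.42 and 3.03, Dcn -1.91 and 1.53, and Mcpt1 -8.15 and 9.76, the last against a reading not well above background, which makes it at least 7.46.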

How the results depend on the processing

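The number of genes higher in A (1817) and in B (1762) was within 1.5 times of these counts under quantile scaling, with all probes averaged, without the filter, without the slide 4 pair and within slide 2. It was 540 and 287 with normexp correction, 828 and 4393 with median scaling, 979 and 944 on the authors' values, and 2990 and 2729 within slide 4. With settings chosen after seeing the data, the genes above background on all 7 arrays gave 813 higher in A, and the slide 3 arrays of A against B gave 2996. Leaving out each array in turn gave 1904 to 2186 genes higher in A and 1762 to 2142 higher in B.

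No named gene moved by more than the replicate spread when an array was left out (770 values). This outcome was fixed in advance and is no sign of stability. The spread came from the same arrays, and leaving out 1 of them cannot shift a difference by that much. Over 2044 values of 110 named genes in all settings, these 770 included, 351 moved by more than the replicate spread. Among them were 85 of 110 with normexp correction and 83 on the authors' values. Of the 2044, 5 reversed, all with normexp correction: Chpf (-0.17), Hes1 (-0.081), Spi1 (-0.19), Marco (-0.41) and Zbtb46 (-0.33). The list medians that reversed were macrophage (-0.32) and neutrophil (-0.50) with normexp correction, heparin (-0.33) and transcription factors (-0.089) with median scaling, neutrophil without the filter (-0.25) and within slide 2 (-0.17), and chymase (-0.23) and macrophage (-0.33) over genes above background on all 7 arrays. The last setting tests fewer genes. The causes of the other changes were not tested. Signal near background limits dim genes.

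As labelled, 0 cocultured genes passed in the limma fit. This was 1 on the authors' values and 4024 without the slide 4 pair, and 0 when each array was left out. Without that pair the labels coincide with the states, which were sorted by expression, so 4024 is no test of genotype. In BMMCs 0 passed, 1 with quantile scaling, and 0 to 2 when each array was left out, the 2 without knockout BMMC 3. The replicate block gave 0 genes in both comparisons and changed no call. Genes with the BMMC direction by label numbered 0 by the planned choice, and by the added one 34, with 4 at or near Pla2g3 and 30 elsewhere.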

Other observations

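Of 24 probes in a table of selected genes that the authors deposited, 10 were higher in A and 4 in B by at least 2-fold without overlap, with a median difference of 0.25. The study chose these probes on the same samples, so their direction is not independent evidence.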
